A study of Mus musculus with 9 samples.

Results

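The response of BV2 microglia to 10 Gy of X-rays under the steroid triol was measured by RNA sequencing, as the difference between 3 libraries of triol-treated irradiated cells and 3 of unirradiated vehicle cells, which makes 6 of the 9 libraries of the series. The members were chosen by group label alone, and all 21951 genes of the count table belonged to the comparison, of which 11295 had enough reads to be tested. BV2 is an immortalised, wild-type line of mouse microglia, the macrophages of the brain. The controls were exposed to vehicle, which was 20% hydroxypropyl-β-cyclodextrin, without any X-rays. Triol-treated cells received 10 µM 5α-androst-3β,5α,6β-triol, a polyhydroxylated steroid, 30 min before the dose, and the labels name no vehicle for them. The remaining 3 libraries, from cells given vehicle and then the same dose, shared the estimate of spread and served to ask where the response under triol differed from that without it. No group received triol alone, so radiation, triol and any difference in vehicle cannot be told apart in the comparison with control. The titles name the 6β compound for all 3 triol libraries, whereas the treatment labels of replicates 2 and 3 read 7β and 8β. How long after the dose RNA was taken is not stated in the labels. The labels also do not call the replicates separate cultures, so the p-values cover the spread among these libraries only, possibly a technical one.

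Ionising radiation breaks DNA, and cells answer through p53, a transcription factor that restrains division, and through repair and checkpoint kinases. Fragments of nuclear or mitochondrial DNA that reach the cytosol can be sensed by cGAS and related receptors, which start the production of type I interferon. Interferon acts through its receptor and transcription factors on short promoter sequences called interferon-stimulated response elements. Microglia in the healthy brain keep a surveying state marked by receptors such as CX3CR1 and by dependence on the growth factor receptor CSF1R, and they exchange part of that program for a phagocytic, lipid-handling one in disease.

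Control libraries held 14118475 to 17705424 counts, those irradiated with vehicle 13879062 to 15192203 and those with triol 17230866 to 18944051. A principal component analysis put 64.4% of the variance on a first axis that set control apart from every irradiated library, triol-treated or not. The 15 genes of a microglia and macrophage identity list were all detected, and their summed level was 4055 to 4141 RPM (reads scaled to the library's total count as in CPM, without TMM) in control and 2866 to 2887 in triol libraries. No gene of the table was targeted in this design.

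With triol and radiation, 4886 of 11295 tested genes differed from control at an adjusted p under 0.05 (43.3%), 2434 of them higher (21.5%) and 2452 lower (21.7%) in triol-treated irradiated cells. The split was even in number and uneven in size. A log2 fold change of at least 1 was reached by 473 of the higher genes and by 14 of the lower ones, and one of at least 2 by 160 and 0. Most of the 473 were of low level, with 218 at a mean under 1 CPM and 202 at 1 to 10 CPM. Only 44 had 10 to 100 CPM and 9 more than 100. Genes near the count filter could pass it through the groups where they were high. Most calls were small, since 79.7% of the called genes changed by less than 0.5 on the log2 scale. A test against a fold change of 1.2 retained 686 higher (6.07%) and 354 lower genes (3.13%). The 3 triol and 3 control libraries did not overlap for 5768 tested genes (51.1%), 2879 higher (25.5%) and 2889 lower (25.6%). A lack of overlap therefore does not set a named gene apart, and it was a condition for the 10 largest changes each way. Expression values below are CPM, counts scaled to a common library size after TMM normalisation, fold changes are on the log2 scale with their standard error (SE), and adjusted p-values are from the quasi-likelihood test of edgeR over all tested genes.

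**Figure D1:**
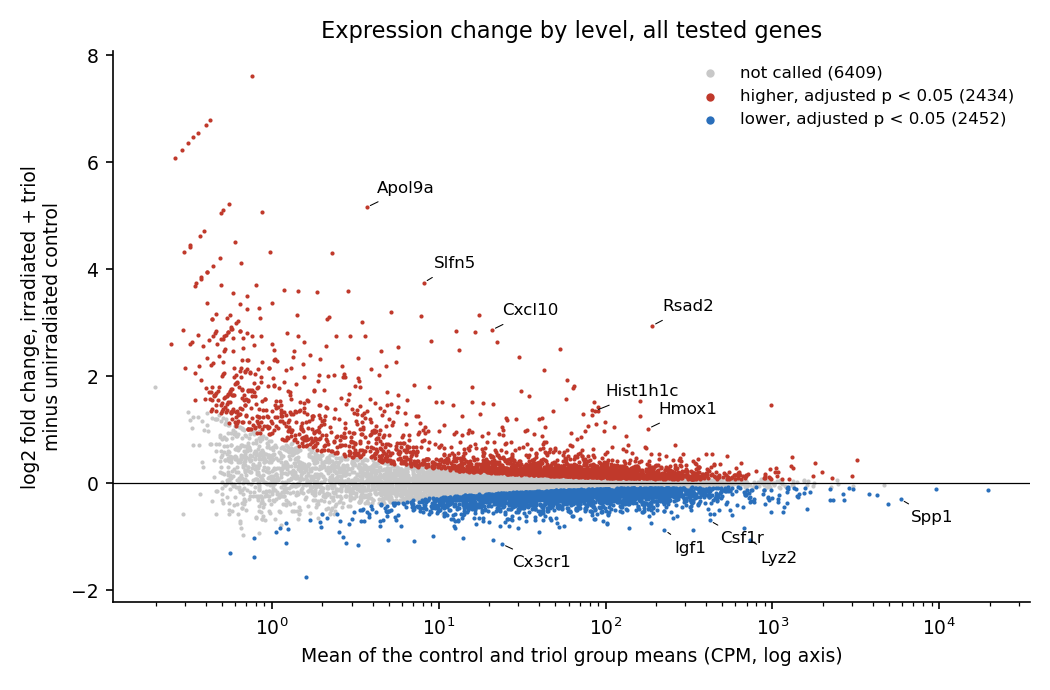
Log2 fold change of triol-treated irradiated cells over unirradiated control (vertical axis) against the mean of the 2 group means in CPM (horizontal log axis), 1 point per tested gene. Red points are the 2434 higher and blue points the 2452 lower genes at an adjusted p under 0.05, and of the called changes of at least 1 on the log2 scale 473 lie above 0 and 14 below.

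Interferon-stimulated genes rose strongly. Of 52 tested antiviral effectors 49 rose and 1 fell, with a median of 1.35 against 0.00379 over all tested genes. Summed over the 53 list members in the table, tested or not, these effectors took 2652 to 2892 RPM in control and 4969 to 5351 in triol libraries. Rsad2, which encodes the antiviral enzyme viperin, stood at 48.2, 42.5 and 40.5 CPM in the 3 control libraries and at 337, 365 and 303 in the 3 triol libraries. The lowest triol library lay far above the highest control library. Its log2 fold change was 2.94 (SE 0.10, adjusted p = 6.9e-08). Ifit1, an inhibitor of the translation of viral RNA, had 3.83, 3.38 and 3.39 CPM in control and 30.7, 34.3 and 28.9 in triol libraries (3.15, SE 0.13). Isg15, a ubiquitin-like protein attached to other proteins during antiviral defence, had 3.61, 5.1 and 3.39 CPM in control and 28.2, 30.9 and 28.2 in triol libraries (2.83, SE 0.16). The groups of both genes were far apart, with the control libraries low throughout. Slfn5, a member of the Schlafen family, rose by 3.75 (SE 0.22) with 11 to 22 reads per control library and 230 to 295 per triol library. Apol9a, an apolipoprotein L gene with a near-identical paralog, had the largest rise among genes of at least 5 CPM in the higher group, 5.16 with a 95% interval of 4.54 to 5.77, and it rested on 1 to 4 reads per control library.

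The upstream genes of the pathway moved in both directions. Of 16 tested genes for interferon receptors, their kinases and transcription factors, 8 rose and 4 fell, with a median of 0.48. Over all tested genes 21.5% rose and 21.7% fell, so the share that fell was near that background. Irf7, the factor that amplifies interferon production, stood at 48.4, 54.7 and 41.7 CPM in control and at 127, 138 and 127 in triol libraries, without overlap (1.43, SE 0.12). Usp18, an interferon-induced brake on the receptor, rose by 1.58 (SE 0.06). In contrast, the receptor gene Ifnar1 fell by 0.33 on the log2 scale and Irf8, a factor of the macrophage lineage, fell by 0.48. Among 19 tested genes of nucleic acid sensing, 8 rose and 5 fell (median 0.13), and the share that fell was again near the 21.7% over all tested genes. Cgas, the cytosolic DNA sensor, rose by 0.35 (SE 0.06) and was picked out after its value was seen. The DNA-binding genes Ifi204 and Ifi203 rose by 1.37 and 1.29. Lower values were found for Mavs (-0.27), the adaptor of the RNA sensors, for Tlr7 (-0.31) and for Ikbke (-0.44), a kinase that activates interferon regulatory factors.

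The guanylate-binding and immunity-related GTPases attack the membranes of vacuoles that hold pathogens. Of 13 tested members 12 rose and 0 fell, with a median of 2.49. The remaining member, Ifi47, named after its value was seen, was at 0.30 (adjusted p = 0.058). Several members had few reads in control cells and passed the filter through the irradiated groups, so this count supports nothing further. The sum over the 17 members in the table, tested or not, was 71.6 to 81.73 RPM in control and 232.3 to 270.6 in triol libraries. Irgm1, which regulates the other GTPases of its family, stood at 30.1, 28.5 and 26.6 CPM in control and at 104, 102 and 95 in triol libraries (1.82, SE 0.06). Gbp3 had 1.73, 3.26 and 2.22 CPM in control and 15.7, 17.4 and 13.6 in triol libraries (2.66, SE 0.18). No triol library overlapped a control library for either gene. For class I antigen presentation 19 of 24 tested genes rose and 1 fell, with a median of 0.35. Tap1, a subunit of the peptide transporter, rose by 0.87 (SE 0.06). The non-classical class I genes H2-T24 and H2-Q4 rose by 1.21 and 1.29 and belong to a family whose reads may be shared.

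Promoter sequences were read for the genes that rose together, to show where the core of the interferon-stimulated response element lies. The core was searched as 2 copies of GAAA with any 2 bases between them or, on the other strand, 2 copies of TTTC spaced likewise, in the 250 bases before each RefSeq start on GRCm38.p6. Among tested genes with a matched promoter, 9101 of 11293 symbols, 3.30% held a match. The share was 5.70% of the genes called higher and 10.4% of those higher by at least 1, against 2.55% of the genes not called. It was 2.90% of the genes called lower, and 8.11% of those lower by at least 0.5, which was 12 of 148 genes. Among the matched GTPase genes 8 of 9 held it, and among the matched antiviral effectors 16 of 42. The other 3 motifs were searched in the same windows. The sterol response element TCACNCCAC or GTGGNGTGA was in 1.2% of tested genes, in 0.622% of those called higher and in 1.88% of those called lower. It was in 0.676% of those lower by at least 0.5, which was 1 of 148 genes. Of the matched genes of cholesterol synthesis and uptake, 1 of 17 held it. For tested genes, those called higher and those called lower, CCAAT or ATTGG was in 41.0%, 41.2% and 40.6% and TTTGAA or TTCAAA in 12.9%, 14.3% and 11.1%. The shares of CCAAT or ATTGG differed between lists. They were 94.1% for matched cholesterol genes, 75.6% for mitosis genes and 70.8% for core histones, but 22.2% for the GTPases and 31.0% for antiviral effectors. TTTGAA or TTCAAA was also in 20.4% of genes higher by at least 1, above the 12.9% of tested genes. Over all 27023 genes with a promoter, tested or not, its share was 18.3%. The 7 promoters below were picked after matches and expression values were seen, 5 from strong risers and 2, Cybb and Spp1, from genes that fell, since a match occurs in both directions. Each is printed in the direction of the gene, with the matched bases in capitals, and matches that overlap form one run. A match is a description of letters and not a shown binding site.
Isg15, chr4:156200819-156201068, minus strand: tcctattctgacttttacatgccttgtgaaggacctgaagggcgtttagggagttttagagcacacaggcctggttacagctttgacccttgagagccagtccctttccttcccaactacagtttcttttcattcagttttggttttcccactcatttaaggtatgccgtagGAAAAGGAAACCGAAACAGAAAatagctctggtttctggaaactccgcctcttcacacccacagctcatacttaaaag
Ifit1, chr19:34640639-34640888, plus strand: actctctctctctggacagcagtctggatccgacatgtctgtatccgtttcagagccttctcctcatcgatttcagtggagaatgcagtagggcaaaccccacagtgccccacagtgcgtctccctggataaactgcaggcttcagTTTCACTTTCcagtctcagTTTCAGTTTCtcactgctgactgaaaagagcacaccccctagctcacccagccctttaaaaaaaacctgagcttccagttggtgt
Cxcl10, chr5:92348890-92349139, minus strand: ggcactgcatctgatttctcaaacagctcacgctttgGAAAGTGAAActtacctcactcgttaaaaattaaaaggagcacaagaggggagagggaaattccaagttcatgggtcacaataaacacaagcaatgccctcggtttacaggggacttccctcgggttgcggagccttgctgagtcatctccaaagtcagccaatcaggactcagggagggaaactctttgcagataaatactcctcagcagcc
Gbp3, chr3:142559794-142560043, plus strand: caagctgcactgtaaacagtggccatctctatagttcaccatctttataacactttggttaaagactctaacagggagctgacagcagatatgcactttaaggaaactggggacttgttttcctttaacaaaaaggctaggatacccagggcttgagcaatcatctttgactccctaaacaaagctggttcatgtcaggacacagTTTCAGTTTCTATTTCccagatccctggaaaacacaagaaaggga
Irgm1, chr11:48871421-48871670, minus strand: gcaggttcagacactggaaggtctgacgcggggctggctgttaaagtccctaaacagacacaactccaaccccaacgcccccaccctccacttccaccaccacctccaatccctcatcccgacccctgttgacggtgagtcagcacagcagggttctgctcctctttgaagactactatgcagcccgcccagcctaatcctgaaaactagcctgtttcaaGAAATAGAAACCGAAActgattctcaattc
Cybb, chrX:9469325-9469574, minus strand: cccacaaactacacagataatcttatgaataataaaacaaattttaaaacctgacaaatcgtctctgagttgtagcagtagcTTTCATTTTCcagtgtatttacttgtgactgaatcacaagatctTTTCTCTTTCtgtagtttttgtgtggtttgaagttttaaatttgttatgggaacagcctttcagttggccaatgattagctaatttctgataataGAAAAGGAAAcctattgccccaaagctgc
Spp1, chr5:104434861-104435110, plus strand: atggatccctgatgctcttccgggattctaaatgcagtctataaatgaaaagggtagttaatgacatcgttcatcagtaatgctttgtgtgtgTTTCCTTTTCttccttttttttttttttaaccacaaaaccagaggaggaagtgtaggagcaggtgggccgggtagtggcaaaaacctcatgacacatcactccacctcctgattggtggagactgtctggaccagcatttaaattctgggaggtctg
In Isg15 the capitals are 3 overlapping matches that begin 78, 72 and 66 bases before the start. Irgm1 and Gbp3 each hold 2 overlapping matches within 45 bases of it, whereas Ifit1 has 2 separate matches at 104 and 85 bases. The match of Cxcl10 begins 213 bases upstream. Cybb, with 3 separate matches, and Spp1, with 1, carried lower levels in triol-treated irradiated cells.

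**Figure D2:**
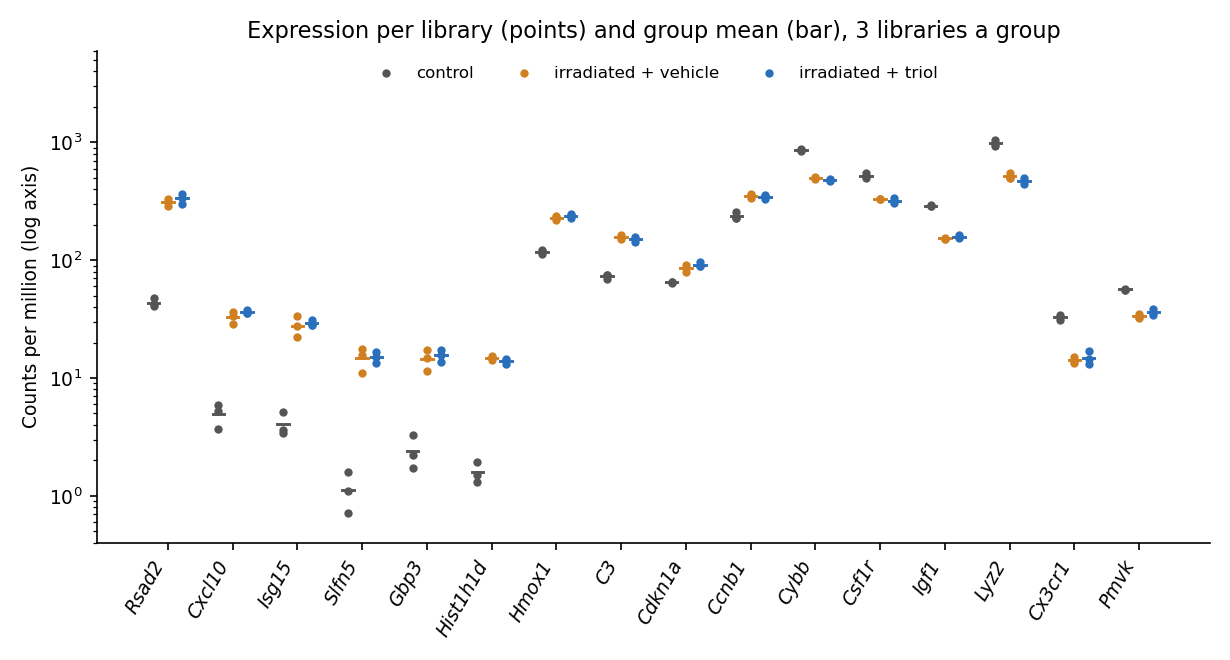
Expression of 16 genes in each of the 9 libraries (points, CPM on a log axis) with group means (bars): unirradiated control, irradiated with vehicle and irradiated with triol. In every gene shown the control libraries stand apart from the triol libraries, while the 2 irradiated groups lie close together.

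Genes for replication-dependent histones, the packing proteins of DNA that are normally transcribed in S phase into messages without a poly(A) tail, rose together. The list had 61 core histone genes in the table, of which 26 were tested and 7 had 0 counts in every library. All 26 tested genes were called higher, with a median of 2.42, but those near the filter passed it through the irradiated groups and had to differ. Over all 61 genes, tested or not, the summed level was 98.53 to 102.8 RPM in control and 229.1 to 241.5 in triol libraries, a ratio of group means of 2.35. The linker histone Hist1h1d had 1.3, 1.95 and 1.5 CPM in control and 13.2, 14.3 and 14.6 in triol libraries (3.12, SE 0.15). Hist1h1c, also a linker histone, had 45.6, 50.7 and 48.8 CPM in control and 127, 117 and 127 in triol libraries (1.35, SE 0.05). Both genes lie in the cluster on chromosome 13, and neither group overlapped the other. Hist1h2bg, a core histone of the same cluster, rose by 3.20 (SE 0.22), with 10 to 27 reads per control library. The labels do not say how messenger RNA was selected, and whether the share of transcripts with a poly(A) tail moved with radiation was not tested. Single-exon genes outside the histone family did not share the direction, with 17 higher and 36 lower of 193 tested (median -0.0487), a count added after the data were seen.

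The p53 targets were mixed. Of 37 tested, 13 rose and 9 fell, with a median of 0.06, and without control replicate 1 the risers numbered 8. The share that fell was near the 21.7% over all tested genes, of which 21.5% rose. Cdkn1a, the cell cycle inhibitor p21, stood at 64.8, 65.7 and 63.7 CPM in control and at 89.4, 88.8 and 96.6 in triol libraries. The triol libraries were all higher, by a modest amount (0.50, SE 0.05, adjusted p = 2.7e-11). Aen, a nuclease of apoptosis, rose by 0.57 and Trp53inp1, a stress-induced nuclear protein, by 0.75. Mdm2, the ubiquitin ligase that degrades p53, rose by 0.16 (SE 0.04), and its partner Mdm4 fell from 119, 119.9 and 134 CPM in control to 78.5, 87 and 83.1 in triol libraries (-0.59, SE 0.05). Ccng1, another target, was lower (-0.19, SE 0.06). Among 39 tested genes of DNA repair and damage signalling 11 rose and 2 fell, with a median of 0.05. The share that rose was near the 21.5% over all tested genes, whereas the share that fell was below the 21.7% over all tested genes. Among those that rose, Xrcc5, which encodes the Ku80 subunit that binds broken ends, rose by 0.58 (SE 0.06), Exo1, a nuclease that resects them, by 0.50, the checkpoint kinase Chek1 by 0.33 and Atm, the kinase that signals breaks, by 0.33.

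Genes of mitosis rose more often than they fell, with 29 higher and 3 lower of 54 tested and a median of 0.13. Ccnb1, the cyclin that drives entry into mitosis, had 227, 229.9 and 254 CPM in control and 349, 334 and 356 in triol libraries. All triol libraries were above all control libraries (0.55, SE 0.04). Pttg1, the securin that restrains the separation of sister chromatids, rose by 0.40, and Mki67, a proliferation marker, was slightly lower (-0.12). Of 47 tested genes of replication and the G1/S transition, 11 rose and 6 fell (median 0.03), which for rises is again near the 21.5% over all tested genes. Among single members, Mcm10, a factor that starts replication, rose by 0.65 (SE 0.05), and the cyclins Ccne1 and Ccne2 by 0.50 and 0.46. Rfc2, a subunit of the clamp loader, and Tk1, the thymidine kinase of S phase, fell (-0.52 and -0.42, SE 0.05 and 0.06). Rfc2 shares 15.1% of its exonic bases with a gene of the other strand. The share of cells in each phase was not measured.

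**Figure D3:**
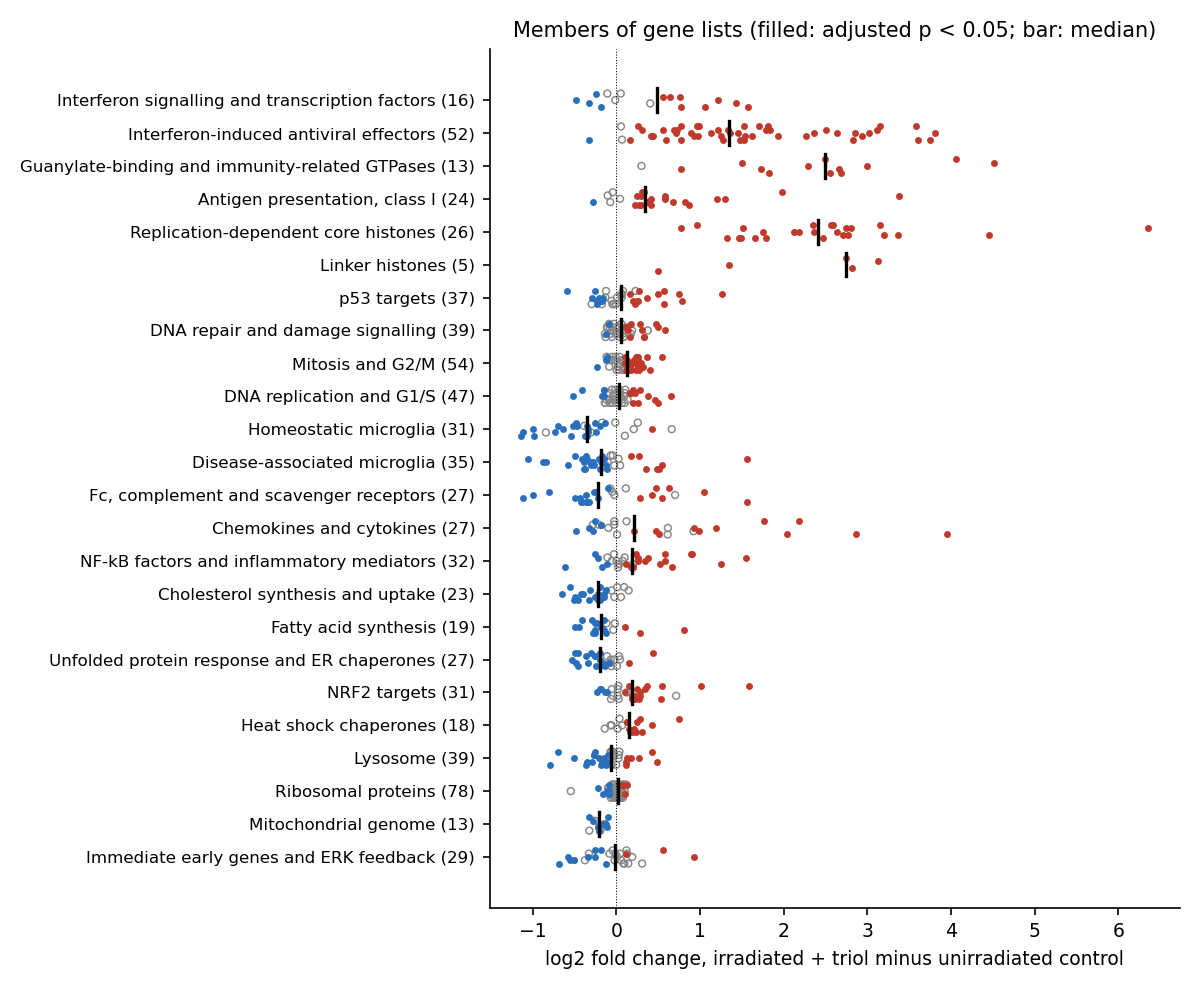
Log2 fold change of triol-treated irradiated cells over control for each tested member of 24 gene lists (number tested in parentheses); filled points passed an adjusted p under 0.05, red higher and blue lower, open points did not, and bars are medians. The interferon-induced and histone lists lie far to the right, and the microglial, cholesterol and endoplasmic reticulum lists lie mostly left of 0.

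Genes that mark microglia fell. Of 31 tested homeostatic genes 21 fell and 1 rose, with a median of -0.35, and of 35 tested disease-associated genes 22 fell and 7 rose, with a median of -0.18. In bulk RNA, fewer cells of a state and less RNA per cell cannot be told apart. Cx3cr1, the fractalkine receptor, had 31.2, 32.8 and 34.2 CPM in control and 14.6, 17 and 13.1 in triol libraries (-1.14, SE 0.08). Csf1r, the growth factor receptor on which microglia depend, had 545, 516 and 496 CPM in control and 307, 319 and 335 in triol libraries (-0.70, SE 0.03). Both genes separated the groups fully, and Csf1r shares 15.1% of its exonic bases with a gene of the other strand. Lower values were also found for P2ry6, a nucleotide receptor of phagocytosis (-0.98), and for Entpd1, the ectonucleotidase CD39 (-0.74). The receptors P2ry12 and Tmem119, classic markers of brain microglia, did not pass the test, with mean levels of 0.772 and 0.579 CPM for P2ry12 and of 1.12 and 1.33 CPM for Tmem119 in control and triol cells. Tgfbr1, a receptor of the TGF-β signal that maintains microglia, was the homeostatic gene that rose (0.43, SE 0.07).

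The disease-associated genes that fell included secreted and lysosomal products. Lyz2, the macrophage lysozyme, stood at 969, 930.0 and 1053 CPM in control and at 502, 445 and 472 in triol libraries (-1.06, SE 0.06). Igf1, a growth factor, had 297, 289 and 289 CPM in control and 159, 164 and 153 in triol libraries (-0.88, SE 0.03). Cybb, the catalytic subunit of the phagocyte NADPH oxidase, had 855, 882 and 847 CPM in control and 478, 489.8 and 472 in triol libraries (-0.84, SE 0.03). The control libraries of these genes were all well above the triol libraries. Trem2, the lipid receptor of the program, was lower by less (-0.35, SE 0.05). Axl, a receptor for dying cells that is also induced by interferon, moved the other way, from 2.6, 3.78 and 3.39 CPM in control to 9.3, 9.5 and 10.3 in triol libraries (1.56, SE 0.14). Cd36, a scavenger receptor, and Ctsl, a lysosomal protease, rose by 0.55 and 0.49. In the list of Fc, complement and scavenger receptors 15 of 27 tested genes fell and 7 rose (median -0.21). C3, the central complement component, rose from 74.5, 74.8 and 69.5 CPM in control to 142, 151 and 157 in triol libraries (1.04, SE 0.04). Cd33, an inhibitory receptor that binds sialic acid, had 437, 424 and 439 CPM in control and 230.3, 235 and 247 in triol libraries (-0.87, SE 0.03), and was among the 10 largest falls with Evl, a regulator of actin (-1.08), and Gpr183, a receptor for oxysterols (-1.06).

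Chemokines and inflammatory mediators did not move as a block. Of 27 tested chemokines and cytokines, 11 rose and 6 fell, with a median of 0.21. The share that fell was near the 21.7% over all tested genes, of which 21.5% rose. Cxcl10, a T cell attractant induced by interferon, rose from 5.27, 5.95 and 3.71 CPM in control to 35.9, 35.7 and 37.9 in triol libraries (2.86, SE 0.11), with no overlap. Ccl5, which attracts T cells and monocytes, rose by 2.19 (SE 0.20), with 13 to 36 reads per control library, and Ccl9 by 1.19. Ccl3 and Ccl7, which attract monocytes, fell (-0.33 and -0.48). Tnf stood at 44, 42 and 45.6 CPM in control and at 45.4, 50.5 and 47.2 in triol libraries, and it did not pass the test (0.12, 95% interval 0.01 to 0.24, adjusted p = 0.085). With scaling to total counts only, or by the upper quartile, its adjusted p was 0.0307 and 0.0427. Among 32 NF-kB factors and inflammatory mediators 16 rose and 5 fell (median 0.19). Acod1, which makes the metabolite itaconate, had 144, 133 and 126 CPM in control and 204, 223 and 213 in triol libraries (0.67, SE 0.04). Ptgs2, the inducible cyclooxygenase, rose by 0.59 (SE 0.06), and Cd14, the co-receptor for bacterial lipopolysaccharide, fell by 0.62 on the log2 scale. Of 29 tested immediate early genes and feedback inhibitors of ERK signalling 10 fell and 3 rose, with Fos, a subunit of AP-1, at 55.9, 51.1 and 49.1 CPM in control and 31.9, 32.1 and 33 in triol libraries (-0.68, SE 0.06). Bcl2, an inhibitor of apoptosis, fell by 0.67 (SE 0.08), in a cell death list of 29 tested genes with 9 higher and 6 lower. Over all tested genes 21.5% were higher and 21.7% lower, so the lower share of this list was near that background.

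Cholesterol synthesis and uptake was lower, and no member rose. Of 23 tested genes 17 fell, with a median of -0.22. Pmvk, an enzyme of the mevalonate pathway, had 55.9, 56 and 57.4 CPM in control and 35.3, 38.4 and 34.6 in triol libraries (-0.65, SE 0.06). Mvd, which acts in the next step of that pathway, had 52.3, 49.9 and 47.4 CPM in control and 34, 35.3 and 32.2 in triol libraries (-0.56, SE 0.06). Neither gene's groups overlapped. Sqle, squalene epoxidase, did not pass the test, at 0.01 (95% interval -0.07 to 0.09). In the cells irradiated without triol 20 of the 23 genes were lower than control, with a median of -0.33. Between the irradiated groups, with and without triol, none of these genes passed the test, 8 reached an unadjusted p under 0.05, and the median difference was 0.11. Of 19 tested fatty acid synthesis genes 13 fell and 3 rose (median -0.18), including Fasn, the fatty acid synthase (-0.45, SE 0.03), and the desaturase Scd2 (-0.49, SE 0.03). Of 19 tested targets of LXR, the receptor that oxysterols activate, 10 fell and 3 rose, while the sterol exporters Abca1 and Abcg1 stood at 0.03 (95% interval -0.04 to 0.11) and 0.02 (-0.05 to 0.10). Cyp11a1, which cleaves the cholesterol side chain to make steroids, rose from 4.4, 4.81 and 3.97 CPM in control to 9.94, 11.4 and 10.5 in triol libraries (1.26, SE 0.13) and had 8.62, 7.35 and 6.86 CPM in irradiated libraries without triol. Those values did not overlap those with triol, but the difference did not pass (0.48, adjusted p = 0.12).

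Stress programs went in different directions. Of 27 tested genes of the unfolded protein response and endoplasmic reticulum chaperones, 17 fell and 2 rose, with a median of -0.19. Edem1, which sends misfolded proteins to degradation, had 777, 775 and 751 CPM in control and 567, 568 and 546 in triol libraries (-0.45, SE 0.03). Sdf2l1, a chaperone component, fell by 0.52 (SE 0.07), and Ddit3, the stress factor CHOP, rose by 0.44 (SE 0.08). Of 31 tested targets of NRF2, the factor of the antioxidant response, 17 rose and 5 fell (median 0.18). Hmox1, heme oxygenase, had 120.4, 121 and 113 CPM in control and 230.4, 242 and 246 in triol libraries (1.02, SE 0.04). Slc7a11, the cystine transporter, rose by 0.55 (SE 0.04), and Gclm, a subunit of the enzyme that starts glutathione synthesis, by 0.53 (SE 0.05). Of 18 tested heat shock chaperones 12 rose and 0 fell (median 0.16), among them Hsp90aa1, a cytosolic chaperone (0.42, SE 0.03). In the lysosome list 18 of 39 tested genes fell and 7 rose, the largest falls being Ctsh (-0.79), a protease, and Naglu (-0.70), an enzyme of heparan sulfate breakdown. Glycolysis had 8 lower and 2 higher genes of 22 tested. The list of glucocorticoid-responsive genes had 4 higher and 4 lower of 16 tested, or 2 higher without control replicate 2. Both shares were near those over all tested genes, 21.5% higher and 21.7% lower. Tsc22d3, a classic target of the list, was lower (-0.36, SE 0.10).

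The next question was where the response under triol differed from that without it. The test of that difference compares the 2 irradiated groups, since both are set against the same control libraries. It called 12 of 11295 genes (0.106%), 11 higher (0.0974%) and 1 lower (0.00885%) with triol, and 865 at an unadjusted p under 0.05. These numbers rested on single libraries. The number called higher was 6 without irradiated replicate 1 or 3 or triol replicate 1 or 2, and 7 without control or irradiated replicate 2. The number called lower was 0 without irradiated or triol replicate 2, 3 without control replicate 3 and 7 without control replicate 1. Across the genes called against control, the median half-width of the 95% interval of this difference was 0.116 on the log2 scale. For the 473 strong risers the interval lay within 0.5 of 0 for 107 genes and excluded 0 for 29, and for the 14 strong fallers these numbers were 4 and 1. A missed threshold does not show that the remaining genes responded alike. Against the shared control, irradiated cells without triol had 5003 genes called (44.3%), 2498 higher (22.1%) and 2505 lower (22.2%). The libraries of the 2 irradiated groups did not overlap for 1494 tested genes (13.2%).

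Spp1, the secreted protein osteopontin, had 6670.2, 6332 and 6396 CPM in control, 4642, 4396 and 4265 in irradiated and 5230.1, 5294 and 5234 in triol libraries. The triol libraries lay between the other groups, apart from both. Against control it fell by 0.30 with triol (SE 0.03), and the difference between the irradiated groups was 0.24 (SE 0.03, adjusted p = 1e-06). Part of its exonic bases, 18.8%, lie in another gene of the same strand. Plau, the urokinase that activates plasmin, had 396, 394 and 362 CPM in control, 294, 293 and 278 in irradiated and 344, 359 and 320.1 in triol libraries, again with triol in between and without overlap (difference 0.24, SE 0.04, adjusted p = 0.00058). Both calls held when any 1 library was left out.

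Of the remaining 10 genes called, Adam8, a membrane metalloprotease, had 367, 344 and 331 CPM in control, 241, 231 and 226 in irradiated and 260.0, 267 and 257 in triol libraries. Emp1, a membrane protein of the PMP22 family, had 634, 584 and 583, 413, 415 and 407 and 455, 467 and 456 CPM in the same order. Triol lay between the other groups for both, with differences of 0.17 and 0.16 between the irradiated groups (adjusted p = 0.031 and 0.019). Hmga2, a chromatin protein, Tuba1a, a tubulin with close paralogs, and Dmxl1, a regulator of the vesicular proton pump, differed by 0.19, 0.17 and 0.19 in the same way. Ptchd1, a patched-domain membrane protein, was at 27.1, 26.8 and 26.3 CPM in irradiated and at 36.9, 32.1 and 31.7 in triol libraries, which overlapped the control libraries at 33.6, 33.3 and 30.2. Dmxl1 and Ptchd1 did not pass against control (adjusted p = 0.12 and 0.59). The mitochondrial gene mt-Co2, a subunit of cytochrome oxidase, was the 1 gene lower with triol (37.7, 40.6 and 40.4 CPM in irradiated and 34.9, 30.8 and 25.4 in triol libraries, difference -0.39). These calls were small and did not all survive the loss of a library: leaving out the library named raised the adjusted p to the values that follow. For Dmxl1 it was 0.0557 without irradiated 1, 0.0609 without irradiated 2 and 0.18 without triol 2. For Emp1 it was 0.0536 without irradiated 1, 0.0731 without irradiated 2, 0.19 without irradiated 3, 0.104 without triol 1, 0.283 without triol 2 and 0.0799 without triol 3. For mt-Co2 it was 0.117 without irradiated 2, 0.19 without irradiated 3, 0.0977 without triol 2 and 0.236 without triol 3. For Hmga2 it was 0.0505 without control 2, 0.0534 without irradiated 1, 0.444 without irradiated 3, 0.133 without triol 1, 0.361 without triol 2 and 0.0799 without triol 3. For Adam8 it was 0.0505 without control 2, 0.173 without irradiated 2, 0.281 without irradiated 3, 0.142 without triol 1, 0.405 without triol 2 and 0.0799 without triol 3. For Tuba1a it was 0.0505 without control 2, 0.246 without irradiated 1, 0.205 without irradiated 3, 0.195 without triol 1, 0.438 without triol 2 and 0.053 without triol 3. For Ptchd1 it was 0.0505 without control 2, 0.0922 without irradiated 1, 0.152 without irradiated 2, 0.27 without irradiated 3, 0.319 without triol 1, 0.0779 without triol 2 and 0.053 without triol 3.

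**Figure D4:**
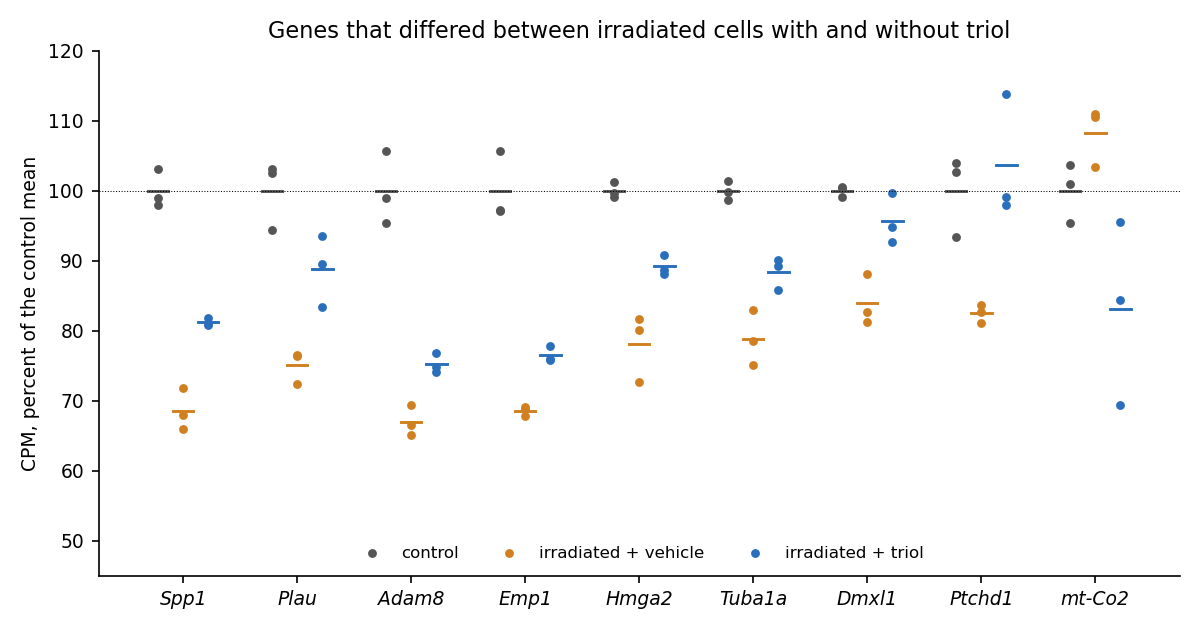
CPM of 9 genes called between the irradiated groups, as percent of the control mean of that gene, for each library (points) and group mean (bars). Triol libraries lie above the irradiated libraries in all genes shown but mt-Co2, where they lie below.

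Proteases and matrix genes around Spp1 and Plau were described by a list of 22 tested genes, with 7 lower and 6 higher than control, against 21.7% lower and 21.5% higher over all tested genes. Mmp19, a matrix metalloprotease, was lower by 0.83 on the log2 scale (SE 0.04), with a difference of 0.17 between the irradiated groups that did not pass (adjusted p = 0.16). It shares 28.3% of its exonic bases with a gene of the other strand. Mmp9, a gelatinase, rose by 1.21 (SE 0.20). The 13 protein genes of the mitochondrial genome had 8 lower and 0 higher members against control (median -0.20), against 3 lower in irradiated cells without triol (median -0.05). mt-Nd1, a subunit of complex I, had 4680.3, 4392 and 4676 CPM in control, 4218, 3957 and 4297 in irradiated and 3959, 3874 and 3971 in triol libraries, and passed against control (-0.22, SE 0.03) but not between the irradiated groups (-0.08, adjusted p = 0.45). Of 78 tested ribosomal protein genes 4 rose and 6 fell, with a median of 0.015, whereas 23 rose and 3 fell in irradiated cells without triol (median 0.076). Between the irradiated groups none of them passed the test, 20 reached an unadjusted p under 0.05, and the median difference was -0.06.

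The last 3 calls, Alb, Serpina3k and Serpina1e, encode plasma proteins made by liver cells, and their levels were low. Alb, albumin, had 4, 11 and 6 reads in control, 24, 11 and 2 in irradiated and 61, 65 and 82 in triol libraries (difference 2.18, SE 0.33, adjusted p = 0.00058). Serpina3k had 0, 6 and 1 reads in control, 1, 0 and 0 in irradiated and 26, 37 and 19 in triol libraries. Serpina1e had 0, 0 and 1 reads in control, 0, 0 and 2 in irradiated and 24, 20 and 14 in triol libraries. All triol libraries were above all others for these genes, and both Serpina genes belong to families of near-identical copies. The whole list of 36 hepatocyte markers summed to 30.72 to 35.64 RPM in control, and to 38.9 to 41.65 without and 46.6 to 52.01 with triol after irradiation, and none of the 36 was at 0 in all libraries. Hp had the most reads of the list in every library (321, 423 and 330 in control, 367, 406 and 409 without, 377, 415 and 471 with triol). That sum therefore hides larger relative rises of members with few reads. In the same order Fga had 0, 0 and 0, 0, 0 and 0, and 9, 5 and 6 reads. Mup3 had 0, 0 and 2, 3, 0 and 1, and 16, 14 and 10. Trf did not follow, with 71, 80 and 68, 66, 50 and 55, and 54, 98 and 76. Summed markers of neurons were 0.1928 to 0.9602 RPM in control, 1.513 to 2.348 without and 2.861 to 3.54 with triol after irradiation, and those of fibroblasts 0 to 0.2259, 0.5266 to 0.7597 and 1.103 to 2.164. Markers of T and B cells followed the same order, with sums of 2.635 to 3.163, 3.729 to 4.251 and 4.406 to 5.068. In irradiated libraries without triol most neuron marker reads were of Tubb3 alone (29, 16 and 30, against 2, 2 and 0 in control). With triol Tubb3 had 44, 23 and 33 reads, fewer than the other neuron markers together in replicates 2 and 3. Snap25 had 1, 5 and 1 reads in control, 0, 0 and 0 without and 2, 10 and 9 with triol. Syp did not follow, with 0, 0 and 1, 2, 4 and 4, and 3, 2 and 2 in the same order. Most T and B cell marker reads were of Lck (30, 30 and 29, 33, 46 and 36, and 54, 47 and 52). The sums of the other marker lists did not separate the 3 groups in the order control, irradiated, triol. Summed endothelial markers were lower after irradiation, with 367.9 to 382.8 RPM in control, 302 to 316.6 without and 318.6 to 340.3 with triol. Most of these reads were of Flt1 alone, with 4601, 5528 and 5241 unscaled reads in control and 4352, 4527 and 4988 in triol libraries. Vwf went from 738, 980 and 710 reads to 1094, 1323 and 1417. Of the 3 tested endothelial markers, 2 were called higher and 1 lower with triol than in control (median 0.45). Astrocyte markers were at 0.4499 to 0.9916 in control and overlapped between the irradiated groups (2.041 to 2.486 without and 1.683 to 2.639 with triol). Oligodendrocyte markers overlapped between all groups (5.596 to 6.17, 5.398 to 7.39 and 5.746 to 8.235), although their means of 5.918, 6.448 and 7.12 RPM rose in that order. The exact permutation test of 3 against 3 libraries cannot give a two-sided p under 0.10, which is the value between triol and control for all of these sums but that of oligodendrocyte markers (p = 0.3). What part other cell types or low-level transcription have in these reads was not tested.

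Transcripts of very low level were more numerous after irradiation, with triol as without it. With every library thinned to 13879062 reads, 12716 to 13007 genes had at least 1 read in control, against 13915 to 14051 after irradiation and 14114 to 14264 with triol as well. Genes below the count filter took 267.2 to 284.4 RPM in control, against 561.8 to 614.0 after irradiation and 617.3 to 662.8 with triol as well. The groups did not overlap in either measure. Among tested genes with a mean under 1 CPM, 222 were higher and 4 lower than control of 580, but such genes passed the filter through the groups where they were high. Among those with 10 to 100 CPM, where the filter plays no part, 1068 were higher and 1485 lower of 6089, and above 100 CPM 653 and 840 of 2606. Of the 473 strong risers 218 had a mean under 1 CPM, 202 one of 1 to 10, 44 one of 10 to 100 and 9 one over 100. These splits were added after the data were seen.

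**Figure D5:**
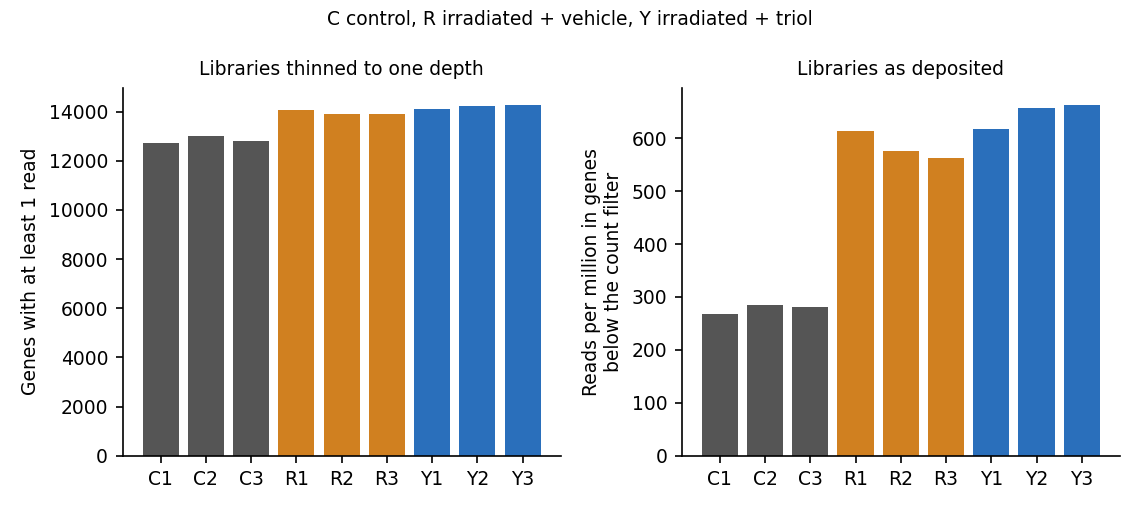
Left, number of genes with at least 1 read in each library after thinning to 13879062 reads; right, RPM in genes below the count filter, in the libraries as deposited. Bars are single libraries (C control, R irradiated with vehicle, Y irradiated with triol), and the control bars are lowest in both panels.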

How the data were processed

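RNA was measured in 9 BV2 libraries, 3 per group, extracted with Trizol and prepared with the NEBNext Ultra RNA kit, per the labels' protocols. The deposited table holds unnormalised whole-number counts per gene, made by the authors with fastp 0.18.0, FastQC, STAR 2.7.1a and featureCounts of Subread 1.6.3 on GRCm38, per the submitters' processing notes. No label or processing note names the annotation release, strand setting or handling of reads with several matches, so overlapping, antisense and near-identical genes are uncertain. All 21951 identifiers were found in GENCODE M21, as protein-coding genes, and coordinates come from it. Promoters come from RefSeq on GRCm38.p6, matched by symbol or gene identifier. Of 4 motifs searched, 2 (CCAAT and TTTGAA) were added after results were seen.

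Genes were filtered with filterByExpr by group, and 11295 entered edgeR 4.0.16 (R 4.3.3; TMM scaling, robust quasi-likelihood F test), with 1 fit over all 9 libraries (6 residual degrees of freedom) and Benjamini-Hochberg adjustment. The test against a fold of 1.2 was glmTreat. The biological coefficient of variation was 3.18%. Replicates differed by more than sampling noise. The test was checked on simulated data. DESeq2 1.42.0, limma 3.58.1 (voom), other scalings, other filters, a replicate block and leaving out each library were alternatives. Named genes were the 10 largest changes each way with at least 5 CPM in the higher group and no overlap, up to 5 per direction of each list, a fixed set, genes that differed between the irradiated groups and, among genes called against control, the 5 each way with the largest such difference. Some genes that this rule names are not reported here, although list counts include them. The group comparison, the gene lists and the named set were chosen with earlier results of these data known, so counts in lists are descriptions.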

Additional observations from a re-analysis of the deposited data

Results flagged for a closer look

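The response differed between irradiated cells with and without triol, by the edgeR test of the difference itself, for 12 genes. The log2 difference, triol minus no triol, was 0.24 for Spp1 and 0.24 for Plau. It was 0.17 for Adam8, 0.16 for Emp1, 0.19 for Hmga2, 0.17 for Tuba1a, 0.19 for Dmxl1 and 0.33 for Ptchd1. For mt-Co2 it was -0.39. For the low-level liver transcripts it was 2.18 for Alb, 5.65 for Serpina3k and 4.35 for Serpina1e, the last 2 against irradiated libraries with 0 to 2 reads, so their fitted values are no bounds.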

How the results depend on the processing

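Counts of genes called against control stayed within 1.5 times under every alternative, except for the rises of at least 1 on the log2 scale, which numbered 867 with no filter in place of 473. DESeq2 called 2055 higher and 2142 lower genes, and limma-voom 2434 and 2460. The share of calls that were higher was 49.8%, or 56.2% with upper quartile scaling and 59.1% with total counts only. Between the irradiated groups the number called higher was 18 with DESeq2, 7 with upper quartile scaling and 27 with no filter, and it ran from 6 to 16 when 1 library was left out. The number called lower was 9 with no filter and 7 with only the 2 groups compared, and ran from 0 to 7 when 1 library was left out. With the replicate block 17 genes were called higher and 5 lower between the irradiated groups, and 2434 and 2442 against control. Same-numbered libraries did not deviate together (correlations -0.0522 to 0.0442), and they did not all correlate best with their own number. With 3 libraries per group, these correlations cannot tell whether same-numbered libraries share a culture or batch, and the labels link them by number only. Among gene lists, higher p53 targets ran from 8 to 13 and higher glucocorticoid-responsive genes from 2 to 5 when 1 library was left out, and lower ribosomal protein genes were 2 with total counts only and 10 with no filter. Among the single genes reported, signs turned only for 4 that did not pass against control. When 1 library was left out, Abca1 ran from -0.005296 to 0.05684, Abcg1 from -0.04286 to 0.04744, Sqle from -0.02973 to 0.02689 and Ptchd1 from -0.02933 to 0.08308. Sqle was at -0.005076 with no filter. The cause of these shifts was not tested. Depth limits genes with few reads in control, whose fold changes are the least certain.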
